A study of Mus musculus with 10 samples.

Results

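The 33 genes described here are interferon-stimulated genes, whose transcripts become more abundant when a cell receives an interferon signal. They were taken as a given list of gene names, which was chosen with earlier results of these data known. No gene of the list was left out for its values. All 33 were found, among 32636 gene names measured in the series. Liver RNA came from male C57BL/6NCrSlc mice, an inbred strain, and every mouse received a high-cholesterol diet. In one group of 5, called mulberry, the drinking water was a mulberry leaf extract over 4 weeks, and the other group of 5, called control, had none. Each liver was measured on 1 one-colour Agilent microarray. The labels gave no age for the mice, no dose of the extract and no infection or other stimulus.

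Interferons are secreted proteins that warn cells of infection. The type I interferons, alpha and beta, bind the receptor made of Ifnar1 and Ifnar2, and the kinases Jak1 and Tyk2 then activate a complex that contains Stat2 and Irf9 and binds a DNA element called the interferon-stimulated response element (ISRE). Interferon gamma, which is made mainly by T cells and natural killer (NK) cells, binds Ifngr1 and Ifngr2, and its signal acts through a DNA element called the gamma-activated site (GAS). In the liver these genes respond in hepatocytes as well as in resident and recruited immune cells. Their products sense viral RNA, block viral replication, attack intracellular pathogens, prepare peptides for T cells and recruit lymphocytes. Many genes answer to both kinds of interferon.

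Promoter windows from RefSeq (build GRCm38.p6), running from 250 bases before a gene's transcription start to 50 after it, matched 27 of the 33 genes. The core letters of the ISRE, searched as GAAANNGAAA on both strands, were present in the windows of 14 of these 27 genes (51.9%), and in those of 1079 of 27025 genes in the RefSeq table (3.99%). The core of the GAS, TTCNNNGAA, which reads the same on both strands, was present for 7 of the 27 genes (25.9%) and for 2582 of the 27025 genes (9.55%). A match is a description of these letters only, and windows without a match say nothing of the factors that act there. Matches of the ISRE core overlapped each other in several windows, and in that of Bst2 an ISRE match also overlapped a GAS match. By role, the ISRE core was found for 4 of 5 guanosine triphosphatase genes, 2 of 2 RNA sensor genes, 6 of 12 antiviral effector genes, 1 of 4 transcription factor genes, the chemokine gene and 0 of 3 antigen processing genes. The following 7 windows belong to genes whose levels by liver are described below, with the first 4 from one array pattern and the last 3 from another. Each is written 5′ to 3′ on the strand of the gene, with the motif cores in capitals.
Gbp2: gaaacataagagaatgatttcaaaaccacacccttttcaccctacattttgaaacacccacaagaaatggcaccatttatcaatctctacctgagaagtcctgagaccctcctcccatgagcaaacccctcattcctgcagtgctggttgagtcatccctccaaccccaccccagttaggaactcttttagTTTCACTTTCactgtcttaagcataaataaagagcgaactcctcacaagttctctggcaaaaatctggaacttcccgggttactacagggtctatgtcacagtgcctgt
Cxcl10: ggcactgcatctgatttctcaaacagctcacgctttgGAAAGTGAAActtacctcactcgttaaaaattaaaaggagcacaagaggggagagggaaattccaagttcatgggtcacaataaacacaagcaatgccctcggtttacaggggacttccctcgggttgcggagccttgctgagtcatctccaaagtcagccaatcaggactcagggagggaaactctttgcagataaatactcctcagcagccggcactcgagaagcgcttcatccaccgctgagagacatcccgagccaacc
Irf1: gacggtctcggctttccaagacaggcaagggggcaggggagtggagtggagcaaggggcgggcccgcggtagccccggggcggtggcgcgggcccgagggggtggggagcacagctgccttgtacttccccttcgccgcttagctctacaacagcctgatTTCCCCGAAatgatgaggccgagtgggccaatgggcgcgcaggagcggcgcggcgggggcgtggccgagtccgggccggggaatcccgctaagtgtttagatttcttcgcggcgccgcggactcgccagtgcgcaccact
Tap1: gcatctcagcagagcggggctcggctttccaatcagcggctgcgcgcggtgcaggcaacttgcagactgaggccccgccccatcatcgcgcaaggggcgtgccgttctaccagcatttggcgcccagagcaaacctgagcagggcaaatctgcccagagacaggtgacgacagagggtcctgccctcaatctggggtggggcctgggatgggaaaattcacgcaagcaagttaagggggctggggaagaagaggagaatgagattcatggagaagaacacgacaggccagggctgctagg
Isg15: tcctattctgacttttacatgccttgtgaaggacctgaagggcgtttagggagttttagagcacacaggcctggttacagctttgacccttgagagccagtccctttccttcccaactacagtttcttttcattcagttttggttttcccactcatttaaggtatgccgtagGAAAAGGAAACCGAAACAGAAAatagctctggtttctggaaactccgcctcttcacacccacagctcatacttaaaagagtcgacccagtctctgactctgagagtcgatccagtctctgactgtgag
Ifit1: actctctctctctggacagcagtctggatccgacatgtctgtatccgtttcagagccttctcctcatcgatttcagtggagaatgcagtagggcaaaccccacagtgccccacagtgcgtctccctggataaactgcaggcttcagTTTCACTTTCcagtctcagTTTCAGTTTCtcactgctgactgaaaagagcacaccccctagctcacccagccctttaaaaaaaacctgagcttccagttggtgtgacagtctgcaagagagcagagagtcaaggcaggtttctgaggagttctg
Ifih1: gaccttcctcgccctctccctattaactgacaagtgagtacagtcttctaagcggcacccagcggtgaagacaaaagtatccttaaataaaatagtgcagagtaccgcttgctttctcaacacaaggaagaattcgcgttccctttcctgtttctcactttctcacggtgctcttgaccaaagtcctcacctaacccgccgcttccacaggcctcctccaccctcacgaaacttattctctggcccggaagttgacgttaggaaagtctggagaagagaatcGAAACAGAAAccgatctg
The Gbp2 window is at chr3:142620413-142620712 on the plus strand and holds 1 ISRE core at positions -59 to -50 from the start, read on the opposite strand. That of Cxcl10, at chr5:92348840-92349139 on the minus strand, holds 1 ISRE core at -213 to -204. The first of 2 annotated starts of Irf1, at chr11:53769764-53770063 on the plus strand, holds 1 GAS core at -90 to -82 and no ISRE core. Tap1, at chr17:34187306-34187605 on the plus strand, holds neither core, and its window overlaps that of Psmb9, which is read from the other strand at chr17:34187281-34187580. The Isg15 window, at chr4:156200769-156201068 on the minus strand, holds 3 overlapping ISRE cores between -78 and -57. Ifit1, at chr19:34640639-34640938 on the plus strand, holds 2 ISRE cores at -104 to -95 and at -85 to -76. Ifih1, at chr2:62646206-62646505 on the minus strand, holds 1 ISRE core downstream of the start, at 32 to 41.

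**Figure D1:**
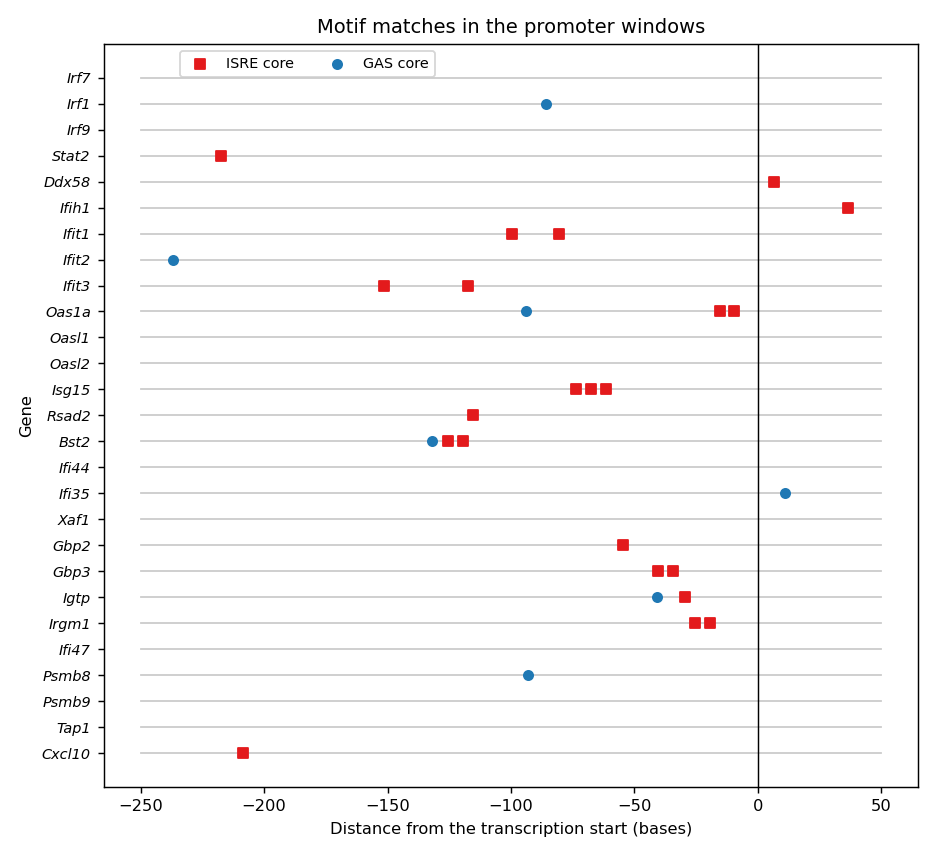
Positions of ISRE and GAS core matches (squares and circles) in the promoter windows of the 27 genes with a RefSeq entry, by distance in bases from the transcription start (first annotated start where there are several). ISRE matches of 14 genes and GAS matches of 7 genes are drawn, and most of them lie before the start.

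Levels are log2 of the processed fluorescence minus the 75th percentile of the same array, so that 0 is that percentile, and they are not compared between genes. Between 54.4% and 62.4% of an array's probes were well above background, and the processed signal at the 75th percentile was between 152.8 and 283.3. All 33 genes were well above background on all 10 arrays, so none entered the test through 1 group alone, whereas 17847 of all names (54.7%) were tested. All 10 hepatocyte markers were well above background on every array, and the plasma protein gene Alb, the hepatocyte's main secretory product, lay between 9.22 and 10.59 in mulberry and between 9.91 and 10.40 in control livers. Differences are mulberry minus control with the standard error (SE) of the limma fit, and folds are mulberry over control.

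The arrays had 2 features that bear on the results. The deposited table of the whole series holds, in its 5 control columns, the values of a control array of another number. Over 10233 genes, its columns matched a scanner table of the same number in mulberry (r between 0.922 and 0.985), but in control each matched one of a different number (r between 0.961 and 0.973, against -0.367 to -0.06 for the same number). The numbers used here are those of the scanner tables. Comparisons of the groups are not touched by it, since all 5 columns stay within control. Second, mulberry livers 1 and 5 had the highest levels of markers of immune cells and also stood apart in many other genes. They lay below all 5 control livers in 41.7% and 32.2% of all genes, against 9.92%, 10.3% and 12.1% for mulberry 2 to 4. The shares above all 5 control livers were 17.7% and 16.7%, against 22.4%, 25.2% and 15.7%. A link between these shifts and the immune markers was not tested. The mean of 12 macrophage markers, relative to its control mean, was 1.99, -0.76, -0.60, 0.20 and 1.94 in mulberry livers 1 to 5 and -0.39, 1.0, -0.79, 0.19 and 0.00 in control livers 1 to 5. The mean of 10 T and NK cell markers was 2.20, -0.23, -0.17, 0.09 and 2.03 in mulberry and -0.54, 0.81, -0.47, 0.64 and -0.44 in control livers. In whole liver RNA, fewer cells of a type and less RNA per cell cannot be told apart.

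None of the 33 genes passed the limma test between mulberry and control livers, and the SE of their differences ran from 0.13 for Ifi35 to 1.13 for Gbp2. Adjusted over all 17847 genes, 0 of 33 were past the threshold of 0.05, and 0% of all genes were. The smallest adjusted p among the 33 was 0.897, and 0.506 among all genes. At an unadjusted p under 0.05 there were also 0 of 33 genes, against 5.18% of all genes (2.89% higher and 2.29% lower). On average 12 of the 33 were higher in mulberry and 21 lower, where 47% of all genes were higher and 53% lower. The median difference was -0.13, with a range from -0.49 for Isg15 to 0.80 for Gbp2, and the median over all genes was -0.02. In each of the 33 genes the levels of the 2 groups overlapped. Among all genes, 0.409% had every mulberry liver above every control liver and 0.319% had every mulberry liver below. Within scan day 1 the median difference of the 33 genes was -0.11, and within scan day 2 it was 0.02. Slide 3, which alone held arrays of both groups, gave 0.65 from 1 mulberry and 2 control livers. Without control 2 the median was 0.07, with 19 genes higher and 14 lower. Without mulberry 1 and mulberry 5 it was -0.46, with 0 genes higher and 33 lower. Of these 33, 1 (Oas1a) had an unadjusted limma p under 0.05, as did 1743 of all 17847 genes, and 0 passed the threshold. Median scaling moved the median of all genes to -0.17 and that of the 33 genes to -0.27, with 7 higher and 26 lower. Leaving out mulberry 1 and mulberry 5 gave 0.06 for the median of all genes, and that omission kept control livers 2 and 4, which were also high in many of these genes.

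**Figure D2:**
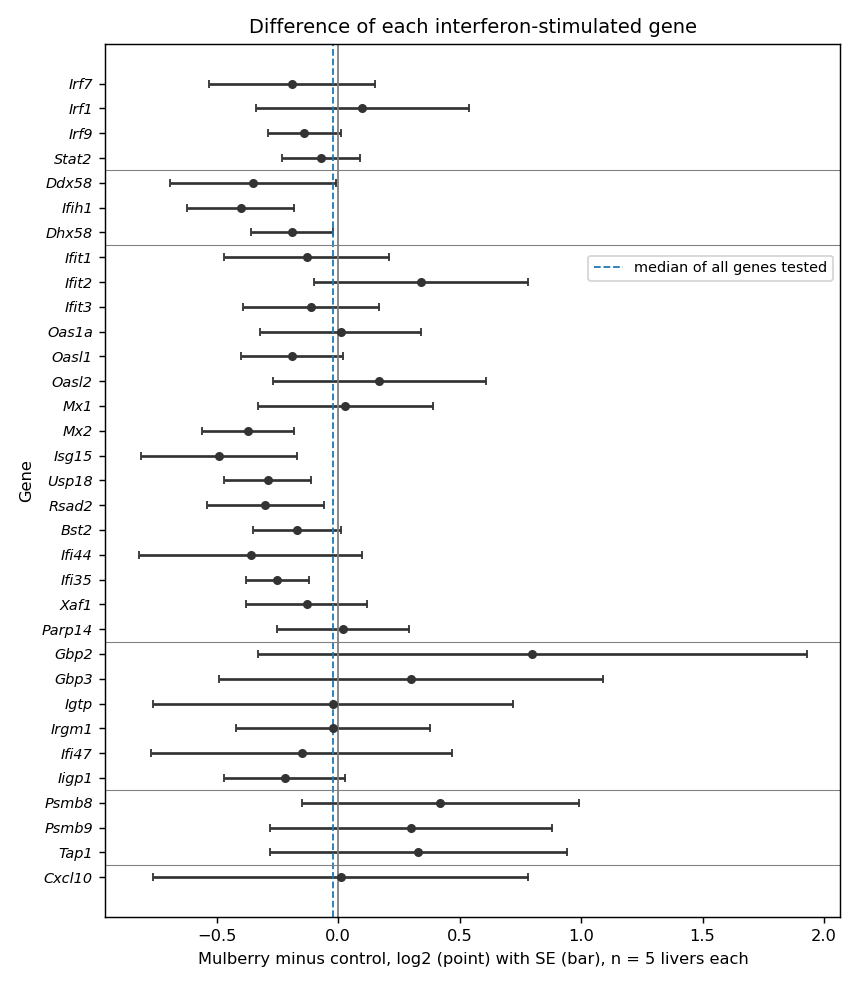
Difference of each of the 33 genes (mulberry minus control, log2, horizontal axis), with the SE of the limma fit as bars (n = 5 livers each), ordered by role, with the median of all genes tested as a dashed line at -0.02. Gbp2 has the highest difference at 0.80 and the widest bar with an SE of 1.13, and Isg15 the lowest difference at -0.49.

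The spread between livers was larger than for most genes. The median SD of a level over the 10 arrays was 0.577 for the 33 genes and 0.324 for all genes tested, and the highest liver exceeded the lowest by a median of 3.10-fold over the 33 genes. Gbp2 stood at the 99.9th percentile of all genes by this SD and spanned 37.7-fold, whereas Ifi35 stood at the 18.5th percentile and spanned 1.47-fold. Within groups, the median SD was 0.465 in mulberry and 0.555 in control livers for the 33 genes, and 0.331 in mulberry and 0.267 in control livers for all genes. The SD was larger in mulberry than in control for 11 of the 33 genes (33.3%) and for 63.9% of all genes. Control 2 was the highest of the 10 livers in 16 genes, although it was highest in 3.75% of all genes. Mulberry 1, mulberry 5 and control 3 were each highest in 5, and in 12.5%, 5.23% and 11.8% of all genes. Control 4 was highest in 2, and in 10.6% of all genes. Control 1 was the lowest liver in 9 genes and control 5 in 7, against 6.98% and 5.77% of all genes. Mulberry 1 was the lowest in 2 of the 33 genes, but in 33.5% of all genes. The mean over the 33 genes, relative to its control mean, was 0.50, -0.43, -0.53, -0.49 and 0.68 in mulberry livers 1 to 5 and -0.62, 0.79, -0.05, 0.25 and -0.38 in control livers 1 to 5. The 3 middle mulberry livers thus lay together with control livers 1 and 5, and the 2 high mulberry livers together with control 2.

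**Figure D3:**
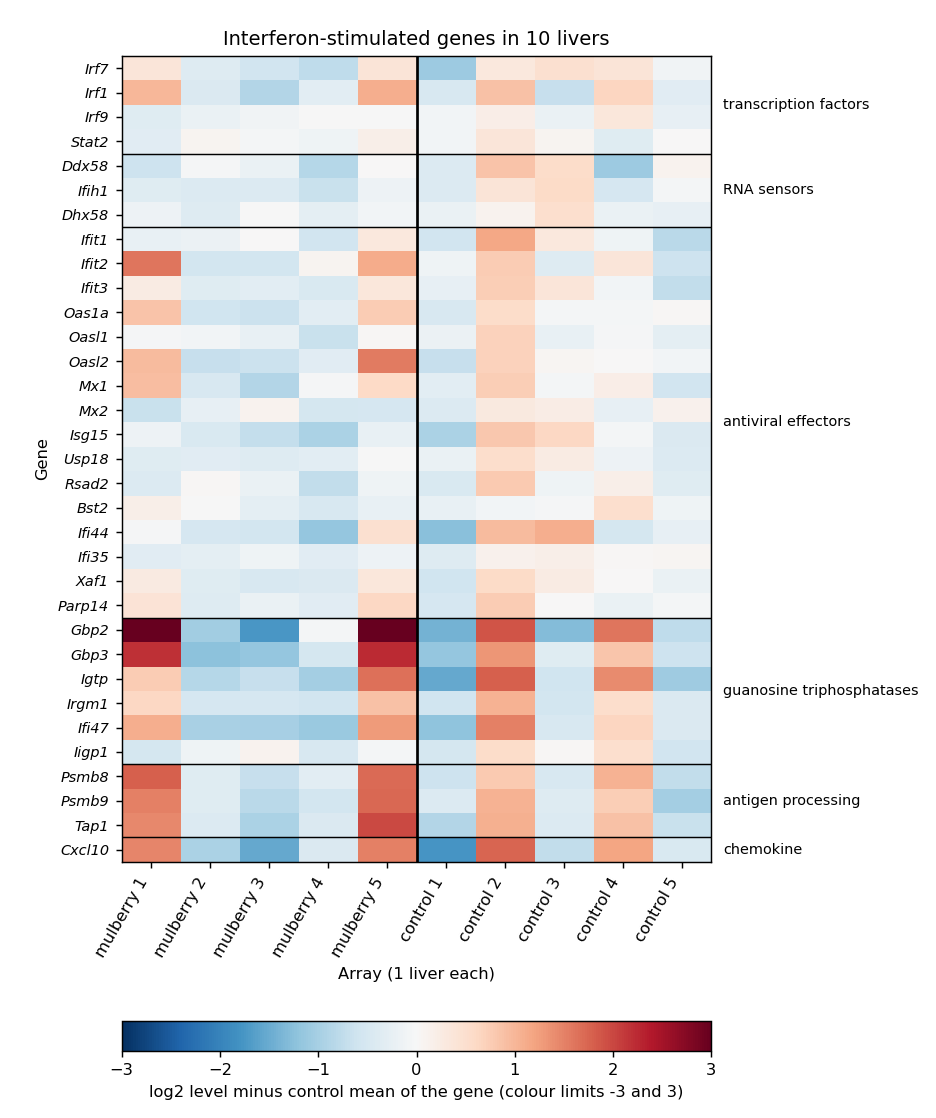
Levels of the 33 genes (rows, by role) in the 5 mulberry and the 5 control livers (columns), as log2 level minus the control mean of the gene, red above and blue below it, with colours limited at -3 and 3. Mulberry livers 1 and 5 and control livers 2 and 4 are red together in Gbp2, Gbp3, Igtp, Ifi47, Psmb8, Psmb9, Tap1 and Cxcl10, and control livers 2 and 3 are red together in the RNA sensors, Isg15 and Ifi44.

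The transcription factors were 1 gene higher and 3 lower on average, with a median difference of -0.10. Irf1, a factor that interferon gamma induces and that itself turns on antigen presentation genes, was at 4.87, 3.44, 3.0, 3.56 and 4.97 in mulberry livers 1 to 5 and at 3.40, 4.75, 3.17, 4.51 and 3.54 in control livers 1 to 5. Its 4 high livers, mulberry 1 and 5 and control 2 and 4, lay at 4.51 or above, and all others at 3.56 or below. The group means were 3.97 ± 0.89 in mulberry and 3.87 ± 0.71 in control (SD, n = 5 each), a difference of 0.10 ± 0.44 (SE). Irf7, which drives the interferon alpha genes, was at 2.33, 1.58, 1.38, 1.20 and 2.35 in mulberry and at 0.86, 2.28, 2.45, 2.35 and 1.85 in control livers. Mulberry 1 and 5 and control 2, 3 and 4 made up its upper values, and control 1 was the lowest (difference -0.19 ± 0.34). Irf9, the DNA-binding part of the type I complex, ranged from 1.21 to 1.56 in mulberry and from 1.32 to 1.92 in control. Its partner Stat2 ranged from 1.56 to 2.08 in mulberry and from 1.54 to 2.28 in control. Both were among the steadier of the 33 genes, with SDs over the 10 arrays of 0.22 and 0.23.

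All 3 sensors of viral RNA in the cytosol were lower on average in mulberry, with a median difference of -0.35, and none passed the test. Ifih1, which encodes the sensor of long double-stranded RNA called MDA5, was at 0.92, 0.87, 0.88, 0.62 and 1.13 in mulberry livers and at 0.88, 1.66, 1.86, 0.78 and 1.22 in control livers. Control 2 and control 3 were clearly highest, control 5 lay just above the highest mulberry liver, and control 1 and 4 lay within the mulberry range. The difference was -0.40 ± 0.22, a fold of 0.76, with an unadjusted p of 0.0954 and an adjusted p of 0.897 in limma. Ddx58, the RIG-I sensor of viral RNA ends, was at -0.83, -0.24, -0.42, -1.07 and -0.20 in mulberry and at -0.61, 0.65, 0.33, -1.29 and -0.11 in control livers. Dhx58, or LGP2, a relative that tunes both sensors, was at 0.38, 0.16, 0.52, 0.24 and 0.45 in mulberry and at 0.35, 0.64, 1.05, 0.34 and 0.29 in control. Control 2 and control 3 were the 2 highest livers for all 3 sensors, by the brightest probe of each. On a dimmer Ddx58 probe, mulberry 1 at -1.84 lay between control 2 at -1.77 and control 3 at -1.92. On another, control 2 and control 3 were again highest, at -2.36 and -2.75. Control 3, the highest for Ifih1 and Dhx58, had a macrophage marker mean of -0.79 and a T and NK cell marker mean of -0.47. In control 2, the highest for Ddx58, these means were 1.0 and 0.81. A link between the sensors and the immune markers was not tested. Without control 2, Ifih1 differed by -0.30 ± 0.23, Ddx58 by -0.13 ± 0.32 and Dhx58 by -0.16 ± 0.19.

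The 16 antiviral effectors had 5 genes higher and 11 lower, with a median of -0.15. Isg15, a ubiquitin-like protein that is attached to other proteins in interferon-treated cells, was at 1.25, 0.96, 0.70, 0.47 and 1.19 in mulberry livers and at 0.47, 2.21, 2.03, 1.34 and 0.98 in control livers. Control 2 and control 3 were highest, and control 1 shared the lowest value with mulberry 4. Its group means were 0.91 ± 0.33 in mulberry and 1.41 ± 0.72 in control (SD, n = 5 each), a fold of 0.71 with a limma unadjusted p of 0.149. Usp18, the protease that removes Isg15 and also restrains the type I receptor, was at 1.35, 1.38, 1.33, 1.41 and 1.71 in mulberry and at 1.53, 2.25, 1.96, 1.57 and 1.32 in control. Mx2, a dynamin-like guanosine triphosphatase gene that RefSeq annotates as a transcribed pseudogene in this reference strain, was at -0.09, 0.33, 0.68, 0.06 and 0.08 in mulberry and at 0.17, 0.87, 0.81, 0.33 and 0.72 in control. Its unadjusted p of 0.0834 was the smallest of the 33 genes by the brightest probe of each (difference -0.37 ± 0.19, adjusted p = 0.897, limma). Ifi35, which binds the related protein Nmi, had the next smallest unadjusted p, 0.0910 (-0.25 ± 0.13, limma), and lay between 2.12 and 2.32 in mulberry and between 2.07 and 2.62 in control livers.

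Ifit1, Ifit2 and Ifit3 encode proteins with tetratricopeptide repeats that bind viral RNA or its translation machinery, and they did not share 1 order of livers. Ifit1 was at -1.81, -1.76, -1.58, -2.16 and -1.28 in mulberry and at -2.16, -0.43, -1.27, -1.71 and -2.40 in control livers, with control 2 and control 3 highest. Ifit3 was at 2.06, 1.45, 1.5, 1.36 and 2.14 in mulberry and at 1.56, 2.55, 2.17, 1.73 and 1.07 in control, with the same 2 livers highest. Ifit2 was at -1.22, -3.36, -3.36, -2.74 and -1.70 in mulberry and at -2.94, -2.06, -3.20, -2.46 and -3.43 in control livers. Here mulberry 1 and 5 were highest and control 2 and 4 followed. Its difference of 0.34 ± 0.44 was the highest among the effectors.

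The oligoadenylate synthetase family, whose active enzymes signal to an RNA-cutting enzyme, also varied by liver more than by group. Oas1a was at 1.35, -0.09, -0.15, 0.18 and 1.26 in mulberry and at 0.03, 1.05, 0.43, 0.43 and 0.53 in control, a difference of 0.01 ± 0.33. Oasl2 was at 0.83, -0.82, -0.77, -0.46 and 1.43 in mulberry and at -0.80, 0.58, -0.07, -0.12 and -0.20 in control, with mulberry 1 and 5 and control 2 above 0.50. Oasl1, which in mice limits the translation of Irf7, ranged from 0.38 to 1.09 in mulberry and from 0.75 to 1.74 in control. Mx1, which in mice that carry an intact copy blocks influenza virus and which RefSeq annotates as a transcribed pseudogene, was at -2.42, -3.82, -4.23, -3.38 and -2.75 in mulberry and at -3.66, -2.61, -3.41, -3.15 and -3.93 in control. The related pair thus differed in its order of livers, since mulberry 1 was the highest for Mx1 and the lowest for Mx2.

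Ifi44, an interferon-induced gene whose product restrains viral replication, spanned 5.08-fold over the livers, at -1.82, -2.28, -2.32, -2.95 and -1.30 in mulberry and at -3.03, -0.82, -0.69, -2.31 and -2.03 in control. Control 1 was the lowest liver of all and control 2 and 3 were the highest. Rsad2, or viperin, an enzyme that makes a chain-terminating nucleotide, ranged from 0.40 to 1.16 in mulberry and from 0.67 to 1.91 in control. Bst2, or tetherin, which holds budding virus at the cell surface, ranged from 6.84 to 7.50 in mulberry and from 7.09 to 7.82 in control. Xaf1, a gene linked to cell death, ranged from -1.27 to -0.44 in mulberry and from -1.39 to -0.21 in control. Parp14, an ADP-ribosyltransferase, ranged from 2.17 to 3.19 in mulberry and from 2.06 to 3.33 in control. By the brightest probe of each, the differences of these 5 genes lay within -0.36 and 0.02.

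**Figure D4:**
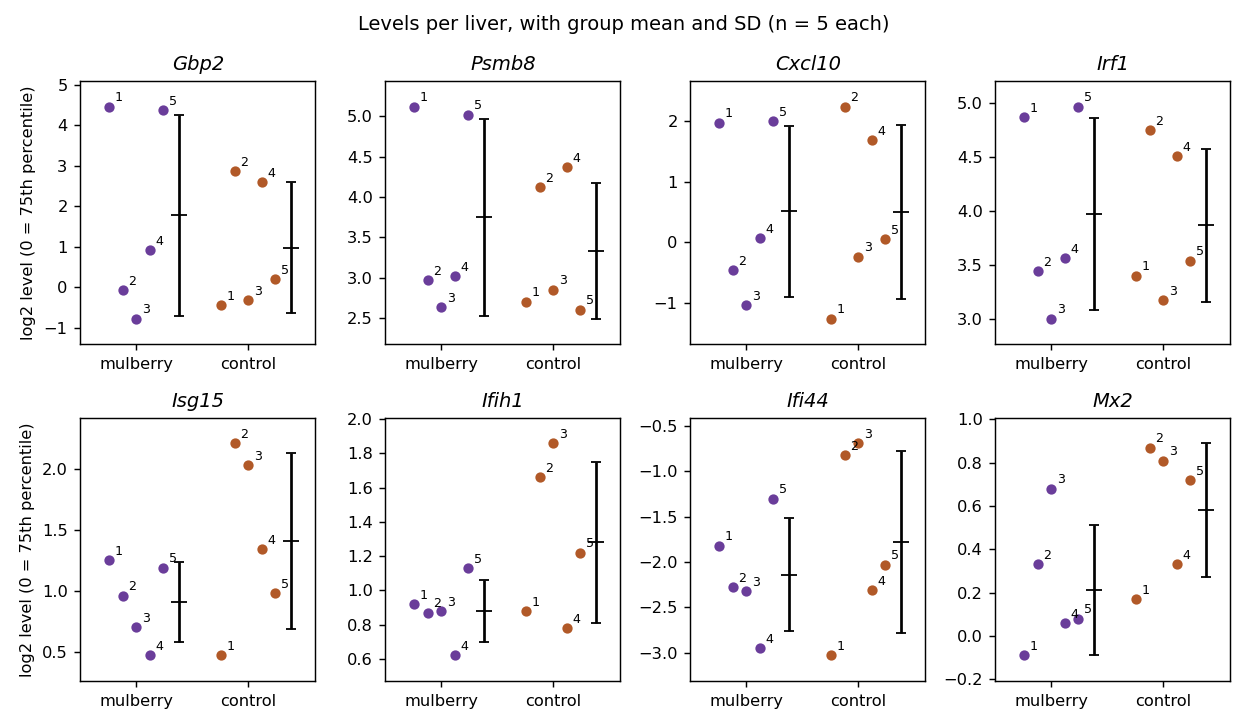
Levels of 8 genes in each liver (log2, 0 is the 75th percentile of the array), mulberry livers in purple on the left and control livers in brown on the right, numbered by replicate, with the group mean and SD in black (n = 5 each). In the upper row mulberry 1 and 5 and control 2 and 4 are the 4 highest livers, and in the lower row control 2 and 3 are the 2 highest.

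Guanosine triphosphatases of the defence against intracellular pathogens included the genes with the widest spread among the 33. Gbp2, a guanylate-binding protein gene, was at 4.46, -0.07, -0.77, 0.92 and 4.37 in mulberry livers and at -0.43, 2.86, -0.32, 2.59 and 0.21 in control livers. The 4 high livers were mulberry 1 and 5 and control 2 and 4, with none of the others above 0.92. Its means were 1.78 ± 2.48 in mulberry and 0.98 ± 1.61 in control (SD, n = 5 each), a difference of 0.80 ± 1.13 with an unadjusted limma p of 0.494. Without mulberry 1 and 5 the difference of Gbp2 was -0.96 ± 0.83. Gbp3 was at 2.81, -0.60, -0.55, 0.09 and 2.85 in mulberry and at -0.54, 1.95, 0.26, 1.45 and 0.00 in control livers, with the same 4 livers highest.

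The immunity-related guanosine triphosphatases Igtp, Irgm1 and Ifi47 also had these 4 livers highest, but with control 2 at the top by the brightest probe of each. Igtp was at 5.05, 3.43, 3.59, 3.27 and 5.94 in mulberry and at 2.74, 6.07, 3.68, 5.69 and 3.21 in control. Irgm1 was at 3.17, 2.05, 2.04, 1.97 and 3.44 in mulberry and at 1.96, 3.6, 2.0, 3.08 and 2.11 in control. On a dimmer Irgm1 probe the same 4 livers were highest, but control 4 was on top at 2.84, with control 2 at 2.78. Ifi47 was at 2.69, 0.64, 0.62, 0.49 and 2.88 in mulberry and at 0.41, 3.12, 1.12, 2.26 and 1.17 in control. Their differences were -0.02 ± 0.74, -0.02 ± 0.40 and -0.15 ± 0.62. Iigp1, of the same family, differed from them in its order, at 5.67, 6.05, 6.29, 5.71 and 6.13 in mulberry and at 5.66, 6.74, 6.22, 6.70 and 5.62 in control. In Iigp1 control 2 and 4 were again high, whereas mulberry 1 was among the 4 lowest livers.

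The antigen processing genes were higher on average in mulberry in 3 of 3, with a median difference of 0.33, and none passed the test. Psmb8, a catalytic subunit of the immunoproteasome, was at 5.12, 2.97, 2.63, 3.02 and 5.02 in mulberry and at 2.70, 4.12, 2.85, 4.37 and 2.60 in control livers. Psmb9, another such subunit, was at 4.87, 3.0, 2.54, 2.82 and 5.08 in mulberry and at 2.96, 4.41, 2.98, 4.10 and 2.34 in control. Tap1, a subunit of the peptide transporter of the endoplasmic reticulum, was at 1.25, -0.59, -1.12, -0.61 and 1.79 in mulberry and at -1.07, 0.89, -0.58, 0.69 and -0.85 in control. In all 3 genes, mulberry 1 and 5 were the highest and control 2 and 4 came next. Differences were 0.42 ± 0.57 for Psmb8, 0.30 ± 0.58 for Psmb9 and 0.33 ± 0.61 for Tap1, and without mulberry 1 and 5 they were -0.46 ± 0.42, -0.57 ± 0.43 and -0.59 ± 0.46. Cxcl10, a chemokine that draws T and NK cells, was at 1.97, -0.46, -1.04, 0.07 and 2.0 in mulberry and at -1.26, 2.24, -0.24, 1.68 and 0.05 in control livers. Its group means were 0.51 ± 1.41 in mulberry and 0.50 ± 1.44 in control, and its range over the 10 livers was 11.3-fold.

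Both orders of livers were noticed after the values were seen and are given as counts with no test. In 13 of the 33 genes the 4 highest livers were mulberry 1 and 5 and control 2 and 4, namely 5 of 6 guanosine triphosphatases, 3 of 3 antigen processing genes, Cxcl10, Irf1, Ifit2, Mx1 and Oasl1. The same held for 4.25% of all genes tested and for 19 of 43 other interferon-stimulated genes, including Cxcl9, Ciita, Tgtp1 and Zbp1. In 10 of the 33 genes, control 2 and control 3 were the 2 highest livers, which held for 2.13% of all genes and for 1 of the 43 other genes. These were the 3 RNA sensors, Ifit1, Ifit3, Isg15, Usp18, Mx2, Ifi35 and Ifi44. Under 6 other ways to scale, correct or summarise the arrays, 10 to 16 genes showed the first order and 7 to 10 the second. The livers of the first order were scanned on both days and lay on 3 slides, whereas control 2 and control 3 shared scan day 1 and slide 1 with control 5. Control 5 was the liver next below control 2 and control 3 for Ddx58, Ifih1, Mx2 and Ifi35, and the lowest of all livers for Ifit1, Ifit3 and Usp18. The part of slide and scan day in the second order was not tested. Among genes with a promoter window, 5 of 12 with the first order held an ISRE core and 4 of 12 a GAS core, and 5 of 7 with the second held an ISRE core and 1 of 7 a GAS core.

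Of 19 ligand genes looked for, 13 were named on the arrays and 7 were bright enough to test, with 6 higher and 1 lower on average (median 0.17) and none past the threshold. That count was 4 higher and 3 lower under median scaling (median 0.02) and likewise after quantile normalization, 3 higher and 4 lower without mulberry 2 (median -0.02), and 1 higher and 6 lower within slide 3. Ifng, which encodes interferon gamma, was at -0.55, -4.83, -4.52, -3.89 and 0.67 in mulberry and at -4.68, -1.39, -5.62, -2.60 and -4.70 in control livers. It was well above background in mulberry 1, 4 and 5 and in control 1, 2, 4 and 5. The 4 highest were again mulberry 1 and 5 and control 2 and 4, and the difference was 1.17 ± 1.17 (limma unadjusted p = 0.338). Ifnb1, the gene of interferon beta, was well above background in 0 of 5 mulberry and 0 of 5 control livers, as was Ifna4. Ifna5 differed by 0.37 ± 0.37, Ifnz by -0.27 ± 0.19 and Ifnab by 0.22 ± 0.33, and probes for this family of near-identical genes can bind more than 1 member.

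Receptor and signalling genes were higher on average in 11 of 11 tested members, with a median of 0.16 and none past the threshold, but in 6 of 11 (median 0.01) under median scaling and likewise after normexp correction. Without mulberry 1 the median was 0.04, and without mulberry 1 and 5 only 3 of 11 were higher (median -0.10). Socs1, an inhibitor that interferon gamma induces, was at 1.26, -1.64, -1.79, -1.45 and 1.04 in mulberry and at -1.69, 0.03, -2.17, -0.54 and -1.88 in control, a difference of 0.73 ± 0.69. Mulberry 1 and 5 and control 2 and 4 were its 4 highest livers. The receptor chains Ifngr1 and Ifngr2 differed by 0.43 ± 0.30 and 0.42 ± 0.26. Of 13 genes of nucleic acid sensing, 8 were higher and 5 lower with a median of 0.03 (-0.12 under median scaling), among them the endosomal RNA receptor gene Tlr7 (0.81 ± 0.55) and Tmem173 (0.73 ± 0.62), which encodes the adaptor STING. The 43 other interferon-stimulated genes tested were 25 higher and 18 lower, with a median of 0.03, and 15 higher and 28 lower with a median of -0.12 under median scaling. One of them, Nlrc5, an activator of major histocompatibility class I genes, had an unadjusted limma p of 0.0413 (0.55 ± 0.24, adjusted p = 0.897). Cxcl9, a chemokine gene that responds mainly to interferon gamma, was at 6.16, 0.85, -0.02, 2.24 and 5.63 in mulberry and at 0.36, 4.40, 0.22, 4.34 and 1.11 in control livers. Ciita, the activator of class II genes, differed by 1.12 ± 1.0, and Gbp5 by 0.89 ± 0.86.

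**Figure D5:**
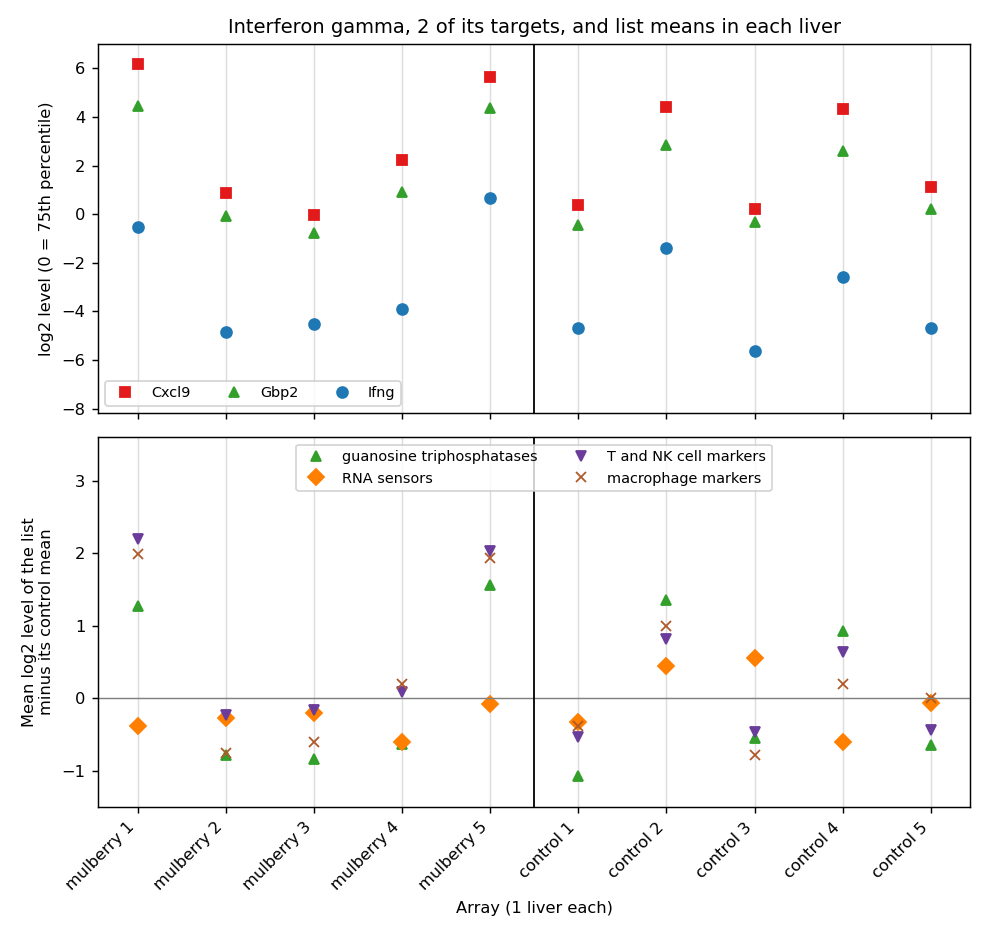
Upper panel: log2 levels of Cxcl9, Gbp2 and Ifng in each mulberry liver (left) and control liver (right). Lower panel: mean of the 6 guanosine triphosphatases, the 3 RNA sensors, 10 T and NK cell markers and 12 macrophage markers in the same livers, each relative to its control mean. Mulberry 1 and 5 and control 2 and 4 are highest for the 3 genes, the guanosine triphosphatases and the T and NK cell markers, whereas the RNA sensors are highest in control 2 and 3.

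The mean levels of T and NK cell markers and of neutrophil markers had mulberry 1 and 5 and control 2 and 4 as their 4 highest livers, and their part in the first order was not tested. Among macrophage markers, 11 of 12 tested were higher on average in mulberry, with a median difference of 0.56, and their means by liver, given above, put mulberry 1, mulberry 5 and control 2 on top, with control 4 not above mulberry 4. All 10 tested T and NK cell markers were higher on average (median 0.89), with Cd3d at 1.32, -2.27, -2.0, -1.88 and 0.93 in mulberry and at -2.20, -0.63, -2.64, -1.23 and -2.29 in control. The 4 tested neutrophil markers were higher in 4 of 4 (median 0.63), with a mean of 1.74, 0.09, 0.08, -0.14 and 1.84 in mulberry and -0.82, 0.97, -0.35, 0.33 and -0.13 in control. The 5 B cell markers were higher in 5 of 5 (median 0.53), with a mean of 1.24, 0.05, 0.39, 0.07 and 0.77 in mulberry and -0.16, 0.32, 0.08, 0.01 and -0.25 in control. Of 4 plasmacytoid dendritic cell markers 3 could be tested and were higher (median 0.73), with a mean of 1.37, 0.43, 0.39, 0.60 and 1.20 in mulberry and 0.60, 0.64, -0.73, -0.16 and -0.35 in control. In these last 2 lists mulberry 1 and 5 were the highest livers, but control 4 was not among the 4 highest. Siglech, the defining marker of these cells, which secrete interferon alpha, was well above background in 0 of 5 mulberry and 0 of 5 control livers. Hepatocyte markers were lower in 9 of 10 (median -0.33), or in 5 of 10 within scan day 1, with a mean of -0.99, -0.11, 0.08, -0.25 and -0.30 in mulberry and 0.19, -0.45, 0.22, 0.03 and 0.00 in control. None of these markers was past the threshold. In none of the 7 marker lists were control 2 and control 3 the 2 highest livers, and control 3 had the lowest macrophage mean of all. The part of these markers in the second order was not tested. Without mulberry 1 and 5, 0 of 12 macrophage markers, 3 of 10 T and NK cell markers and 1 of 4 neutrophil markers (median -0.17) were higher in mulberry, as were 4 of 5 B cell markers (median 0.06) and 3 of 3 plasmacytoid dendritic cell markers (median 0.39). The omitted livers had the highest means of these lists within mulberry, and control 2 and 4 were kept. Lower list means in mulberry were thus built into this omission. The neutrophil median was 0.22 without mulberry 1 and 0.03 with array weights.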

How the data were processed

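Total RNA of 10 livers, 500 ng each, was labelled with Cy3 and hybridised to 1 array per liver, per the labels' protocols. The deposited scanner tables hold a processed fluorescence intensity per spot, with the local background already removed but no scaling from array to array, per the file headers. Per the submitters' processing notes, the software was Agilent Feature Extraction, version 10.1.1.1. The deposited series table holds a linear intensity per gene symbol. Its values look quantile-normalized and averaged over probes, as judged against the scanner tables, and the steps are not given in the sources used here. It served as an alternative, and 0 columns were unused.

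Each array held 43379 spots that were not controls and 41174 probes, 0 spots were saturated, and 46 probes that lacked a value somewhere were dropped. RefSeq accessions named 25070 probes (61.0%), 31 of the 33 genes among them. Mx1 and Mx2 were named through the series table, whose rows matched 1 probe each (r = 1.00, against 0.931 and 0.950 for the next best probe). One further gene that was to be named is not reported here. Of other list genes, 9 could not be named and are not analysed here.

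A gene was represented by its brightest probe and entered the test where 4 or more of the 5 arrays of a group had it well above background. Of 47 probes for the 33 genes, 7 genes had several that could be tested, and these had the same direction in 7 of 7. Log2 values went into a two-sided test with limma (version 3.58.1, R 4.3.3, functions lmFit and eBayes). Its p-values were adjusted by Benjamini-Hochberg over 17847 genes. The fit was also run on simulated data with independent noise for each gene, which held no variation shared by genes within a liver. Group, scan day and slide came from the labels and file headers, and the number of arrays limits the precision. The labels do not say whether animals shared a cage. Alternatives covered scaling, background, filters, probes, scan day, slide, replicate number, array weights and left-out arrays. The normexp correction with an offset of 50 used the deposited median intensity of each spot. Plots were drawn with matplotlib 3.10.9 in Python 3.11.15.

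The 33 genes, the pathway and marker lists, their roles and the omission of mulberry 1 and 5 were chosen with earlier results of these data known. All 33 genes are reported whatever their values, with up to 4 genes of each other list by size of difference. Other genes named were chosen after their values were seen.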

Additional observations from a re-analysis of the deposited data

Results flagged for a closer look

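Among 114 sets of 5 arrays (50 genes and 7 list means in each group), 4 had 1 array apart from the others by Dixon's criterion, whose critical value for 5 samples is 0.71, where chance alone gives about 5.70. Usp18 stood at 1.71 in mulberry 5, against 1.33 to 1.41 in the other mulberry livers, a gap of 0.803 of the range. Oasl1 was at 1.74 in control 2, with the other control livers between 0.75 and 1.02 (0.732). Bst2 was at 7.82 in control 4, with the others between 7.09 and 7.28 (0.733). Ifi35 was at 2.07 in control 1, with the others between 2.48 and 2.62 (0.751).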

How the results depend on the processing

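Of the 33 genes, 0 passed the threshold under any of the 28 alternatives, and their smallest adjusted p was 0.15, within slide 3. Apart from the fit within slide 3, at most 5 of them had an unadjusted limma p under 0.05. That was with array weights, where 2688 of all 17847 genes had one too. Among all genes 1 passed with array weights, 1 without mulberry 1 and 1 without mulberry 1 and mulberry 5, and 0 under the other 25, while the number at an unadjusted p under 0.05 ranged from 324 to 3629, against 924 in the main analysis. The median difference of the 33 genes was 0.65 within slide 3 and 0.65 when slide was a fixed block, since slide 3 alone held both groups, with 1 mulberry and 2 control arrays. Within slide 3 the lone mulberry array is assumed to vary like control, while under the block the spread also comes from the other slides. Otherwise it lay between -0.46 and 0.07. Leaving out 1 array at a time gave 0 to 1 gene called among all genes, 0 of the 33, and medians from -0.23 to 0.07. Of 891 values of single genes under alternatives, 134 had the other sign, in 29 of the 33 genes, and none of these was past the threshold. With the replicate number as a block (replicate block) the median was -0.13, and 0 of 33 genes and 0 of all genes passed. An unadjusted limma p under 0.05 was found there for 1 of the 33 genes (Mx2) and for 942 of all genes. Under these replicate numbers, which are the scanner tables', same-numbered arrays had correlated deviations of r = -0.26, -0.44, 0.41, 0.01 and -0.03. The series table numbers the control arrays differently, and a pairing by its numbers was not tested.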
